A study of Mus musculus with 10 samples.

Results

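Red pulp macrophages are the large resident macrophages of the spleen, and 9 genes that mark them were followed through RNA sequencing of splenic dendritic cell (DC) precursors. The genes were Spic, Vcam1, Adgre1, C1qa, C1qb, C1qc, Cd163, Cd5l and Mrc1, taken by name from a deposited table of 52550 genes, in which each of the 9 names occurred once. The 10 libraries came from spleens of C57BL/6 mice and fell into 4 groups. KO pre-cDC2 (2 libraries) and KO pre-cDC1 (3 libraries) were precursors of type 2 and type 1 conventional DCs from CD11c-cre Adam10fl/fl mice. WT pre-cDC2 (2 libraries) and WT pre-cDC1 (3 libraries) were the same precursors from wild-type mice. Sample titles call pre-cDC2 Ly6C and pre-cDC1 DN. In the KO mice, Cre recombinase made under the promoter of CD11c, a surface integrin of DCs that macrophages also make, deletes a loxP-flanked part of Adam10, which encodes a membrane protease that sheds surface proteins. Neither the gates of the sort nor the number of mice behind a library is stated. p-values therefore measure only the spread between libraries, which may be technical.

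Red pulp macrophages take up aged red blood cells, break down their haem and return the iron to the blood. Their development depends on SPIC, a transcription factor of the ETS family that haem induces in monocytes and macrophages, and VCAM1 and the F4/80 antigen (the product of Adgre1) are used to recognise them. Conventional DC precursors come from a separate bone marrow lineage, depend on the receptor FLT3 and mature into antigen-presenting cells. The genes followed here thus serve in such precursors mainly as a readout of macrophage transcripts, whether made by the precursors or by other cells in the sort. In bulk RNA, fewer cells of a type and less RNA per cell cannot be told apart.

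Libraries held 7862449 to 13177686 reads assigned to genes. The cDC1 lineage list, with Xcr1 and Batf3 among its 10 genes, summed to 113 to 129 RPKM (reads scaled to gene length and library size) in pre-cDC2, against 2318 to 3092 RPKM in pre-cDC1. Ly6c2 had 16221 to 23924 reads in pre-cDC2 libraries, against 160 to 341 in pre-cDC1 libraries. All 13 core cDC genes had reads in all 10 libraries, with Cd74, H2-Ab1 and H2-Aa the highest of them in each. They summed to 3843 to 4051 RPKM in KO pre-cDC2 and to 11711 and 3875 in WT pre-cDC2 replicates 2 and 3. In pre-cDC1 they summed to 31354 to 45273 RPKM in KO and 41545 to 45366 in WT. Pre-cDC2 libraries also held transcripts of T cells, with 2035 to 2160 RPKM over 16 markers in KO and 165 and 2985 RPKM in WT replicates 2 and 3, and of NK cells. Adam10 had 909 and 742 reads in KO pre-cDC2, 228 and 1261 in WT pre-cDC2, 9, 3 and 13 in KO pre-cDC1, and 28, 48 and 10 in WT pre-cDC1. Neither KO difference of Adam10 passed the test (limma adjusted p = 0.884 in pre-cDC2 and 0.644 in pre-cDC1), and a gene-level value, which includes exons outside the deleted part, does not check the deletion. One library, WT pre-cDC2 replicate 2, was unlike the rest of its cell type. It had the highest core cDC sum and the lowest T cell sum of the pre-cDC2 libraries. Between it and WT pre-cDC2 replicate 3, 35.2% of the 14787 genes tested differed by more than 1 on the log2 scale, and results that rest on it are given with and without it.

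The red pulp macrophage genes were at low levels where they were detected, and Cd5l had a read in only 2 of the 10 libraries. Flt3, for scale, averaged 85.8 ± 2.90 RPKM in KO pre-cDC2, 116 ± 86.2 in WT pre-cDC2, 187 ± 23.2 in KO pre-cDC1, against 178 ± 4.72 in WT pre-cDC1 (SD, n = 2, 2, 3 and 3). The highest value of any of the 9 genes in any library was 9.28 RPKM, for Cd163 in WT pre-cDC2 replicate 2. Summed over the 9 genes, libraries reached 13 to 14.5 RPKM in KO pre-cDC2, 13.1 to 27.7 in WT pre-cDC2, 5.47 to 11.8 in KO pre-cDC1, against 14.2 to 21.9 in WT pre-cDC1. By mean RPKM, C1qb stood at percentile 67.6 of genes with a read, Cd163 at percentile 65.4 and C1qa at percentile 62.2, while Spic was at percentile 25.3 and Cd5l at percentile 21.6.

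**Figure D1:**
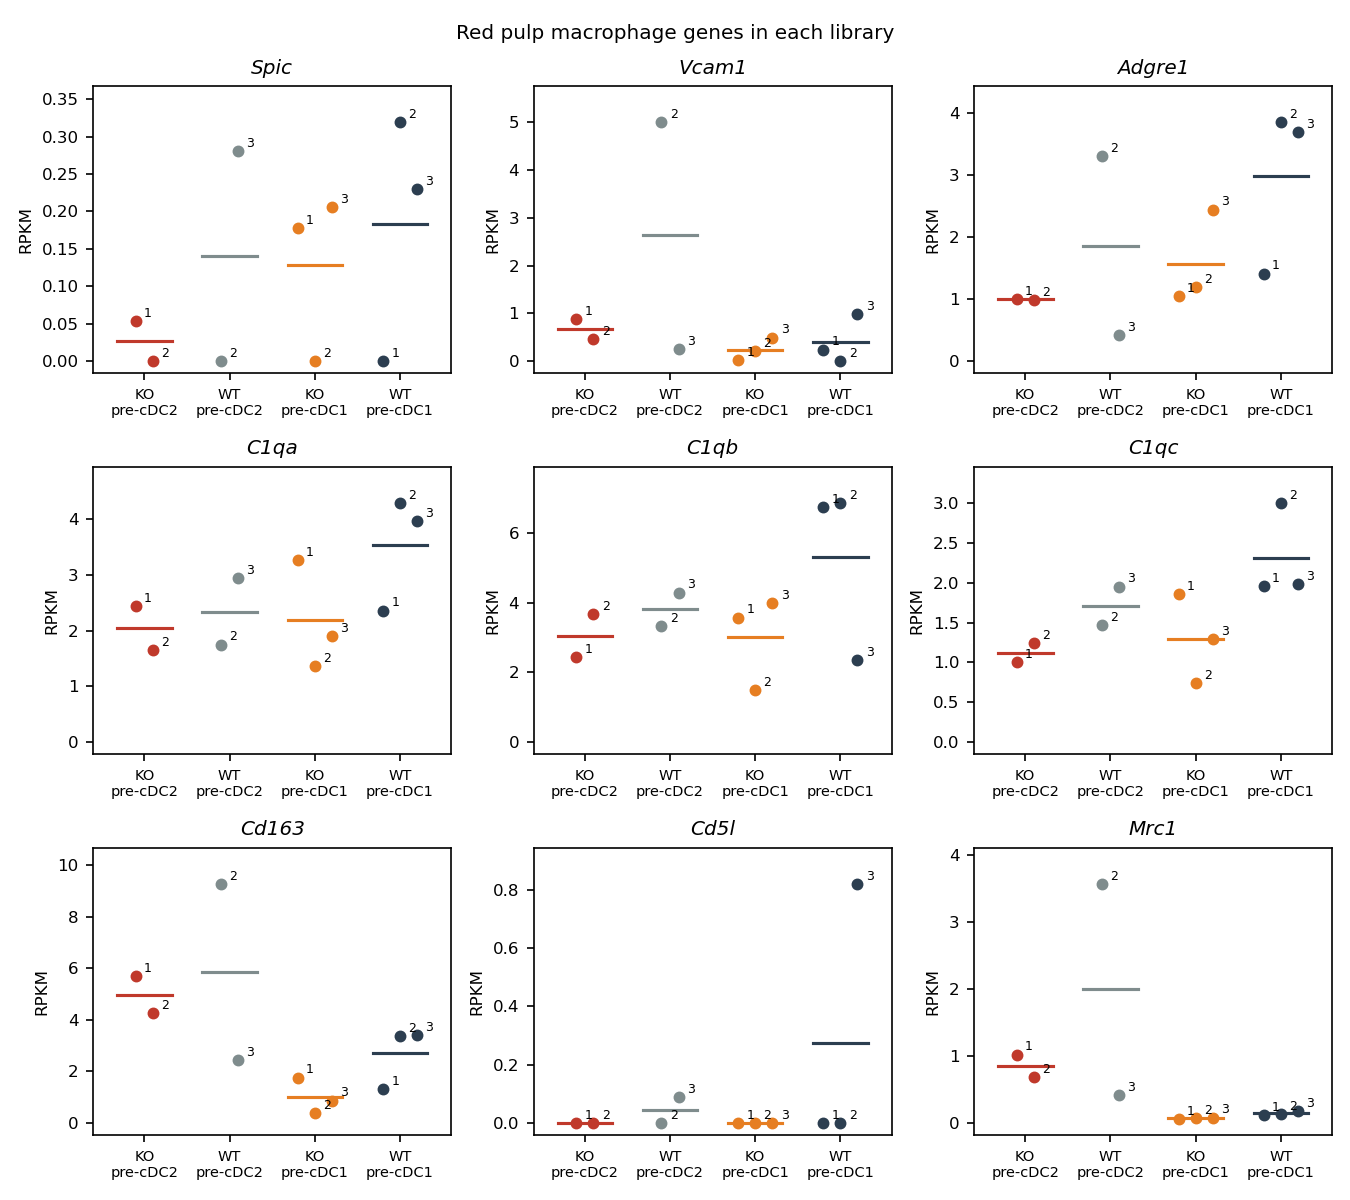
RPKM of the 9 red pulp macrophage genes in each library (points, with replicate numbers) and the group mean (lines), by group. Vcam1, Cd163 and Mrc1 peak in WT pre-cDC2 replicate 2, Cd5l is almost confined to WT pre-cDC1 replicate 3 (0.820 RPKM), and each complement gene lies between 0.738 and 6.87 RPKM in all 10 libraries.

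Spic and Cd5l were close to absent. Spic (ENSMUSG00000004359.16, chromosome 10, 88674772 to 88685015, minus strand, GRCm38), the ETS factor named above, had 2 and 0 reads in KO pre-cDC2, 0 and 12 in WT pre-cDC2, 7, 0 and 6 in KO pre-cDC1, and 0, 11 and 9 in WT pre-cDC1. Every group had a library with no read of Spic, so the 4 groups overlapped, and the highest level was 0.320 RPKM in WT pre-cDC1 replicate 2. Cd5l (ENSMUSG00000015854.7, chromosome 3, 87357881 to 87371073, plus strand) encodes AIM, a secreted scavenger-receptor protein of tissue macrophages. It had 17 reads in WT pre-cDC1 replicate 3, 2 in WT pre-cDC2 replicate 3 and none in the other 8 libraries, where a count of 0 allows up to 3 reads per library (counting error only, since these are PCR reads without molecular identifiers).

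Vcam1 (ENSMUSG00000027962.14, chromosome 3, 116109949 to 116129688, minus strand) encodes the adhesion molecule that binds the integrin VLA-4, and endothelial and stromal cells make it as well as macrophages. It had 76 and 36 reads in KO pre-cDC2, 611 and 25 in WT pre-cDC2, 2, 18 and 33 in KO pre-cDC1, and 19, 0 and 89 in WT pre-cDC1. WT pre-cDC2 replicate 2 was the high library at 5.01 RPKM, 5.09-fold above the next, WT pre-cDC1 replicate 3, and the groups otherwise overlapped. Vcam1, Spic and Cd5l did not pass the filter for the test, which asked for a log2 RPKM above 0 (1 RPKM) in at least 2 libraries, because at most 1 library of each reached that level. They are therefore described by their values. In a fit of 25340 genes without the filter none of the 3 passed in any comparison, and the largest of their differences was 3.70 ± 2.37 log2 (SE; limma adjusted p = 0.451), for Vcam1 in WT pre-cDC2 against WT pre-cDC1. WT pre-cDC2 replicate 3 alone was at -1.97 log2 RPKM for Vcam1, against a WT pre-cDC1 mean of -3.52.

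Cd163 and Mrc1 encode endocytic receptors. CD163 takes up complexes of haemoglobin with haptoglobin, and MRC1, the mannose receptor CD206, binds sugars of microbes and of the body's own glycoproteins. Cd163 (ENSMUSG00000008845.9, chromosome 6, 124304656 to 124330527, plus strand) was at 5.70 and 4.26 RPKM in KO pre-cDC2, 9.28 and 2.45 in WT pre-cDC2, 1.76, 0.391 and 0.870 in KO pre-cDC1, and 1.33, 3.37 and 3.4 in WT pre-cDC1. Both KO pre-cDC2 libraries lay above every KO pre-cDC1 library, as in 28.6% of tested genes. WT pre-cDC2 replicate 3 lay within the range of WT pre-cDC1. Mrc1 (ENSMUSG00000026712.3, chromosome 2, 14229392 to 14332057, plus strand) was at 1.02 and 0.683 RPKM in KO pre-cDC2, 3.58 and 0.423 in WT pre-cDC2, 0.0611, 0.0798 and 0.0829 in KO pre-cDC1, and 0.123, 0.140 and 0.185 in WT pre-cDC1. These rest on 64 and 38 reads in KO pre-cDC2, 313 and 30 in WT pre-cDC2, 4 to 5 in KO pre-cDC1 and 7 to 12 in WT pre-cDC1. Within each genotype the pre-cDC2 libraries lay above the pre-cDC1 libraries for Mrc1, as in 28.6% of tested genes in KO and 20.2% in WT. Mrc1 entered the test through pre-cDC2 libraries alone.

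Adgre1 (ENSMUSG00000004730.14, chromosome 17, 57358691 to 57483527, plus strand) encodes F4/80, an adhesion G protein-coupled receptor used as the standard surface marker of mouse macrophages. It was at 1.00 and 0.989 RPKM in KO pre-cDC2, 3.3 and 0.415 in WT pre-cDC2, 1.05, 1.19 and 2.44 in KO pre-cDC1, and 1.41, 3.85 and 3.69 in WT pre-cDC1. The 2 WT pre-cDC2 libraries alone spanned most of the range of the 10, and the genotypes overlapped in both cell types. The cell types overlapped in WT, while both KO pre-cDC2 libraries lay below the KO pre-cDC1 libraries, as in 23.1% of tested genes. By group mean the order was WT pre-cDC1 (2.98 ± 1.37 RPKM), WT pre-cDC2 (1.86 ± 2.04), KO pre-cDC1 (1.56 ± 0.766) and KO pre-cDC2 (0.996 ± 0.0108; SD, n = 3, 2, 3 and 2), and no neighbours in this order differed by more than the larger of their SDs.

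C1qa, C1qb and C1qc lie side by side on chromosome 4 and encode the chains of C1q, the recognition molecule of the classical complement pathway, which macrophages secrete. C1qa (ENSMUSG00000036887.5, 136895917 to 136898803, minus strand) was at 2.45 and 1.65 RPKM in KO pre-cDC2, 1.75 and 2.94 in WT pre-cDC2, 3.27, 1.37 and 1.90 in KO pre-cDC1, and 2.36, 4.29 and 3.97 in WT pre-cDC1. C1qb (ENSMUSG00000036905.8, 136880129 to 136886187, minus strand) was at 2.43 and 3.69 in KO pre-cDC2, 3.34 and 4.29 in WT pre-cDC2, 3.58, 1.5 and 4.0 in KO pre-cDC1, and 6.76, 6.87 and 2.35 in WT pre-cDC1. C1qc (ENSMUSG00000036896.5, 136889804 to 136893065, minus strand) was at 1.00 and 1.25 in KO pre-cDC2, 1.47 and 1.95 in WT pre-cDC2, 1.86, 0.738 and 1.30 in KO pre-cDC1, and 1.96, 3.01 and 1.98 in WT pre-cDC1. Between 14 and 67 reads lay behind each of these values. C1qc was lower in every KO library than in every WT library of the same cell type. So were 9.27% of tested genes in pre-cDC1 and 14.6% in pre-cDC2. C1qa and C1qb overlapped between genotypes in both cell types.

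The complement genes were the most even of the 9 over libraries. The range over the 10 libraries was 1.63 log2 for C1qa, 2.18 for C1qb and 2.01 for C1qc, against 3.19 for Adgre1, 4.55 for Cd163 and 5.78 for Mrc1. WT pre-cDC2 replicate 2 held 58.7% of the summed RPKM of Vcam1, 56.1% of Mrc1, 28.3% of Cd163 and 17.1% of Adgre1, where an even spread over libraries gives 10%. WT pre-cDC1 replicate 3 held 90.3% of Cd5l. As a description over the 10 libraries, in which all genes share the library and its depth, C1qa and C1qc had a Pearson r of 0.83 in log2 RPKM (0.74 after group means were removed) and C1qb and C1qc one of 0.77 (0.70). C1qa and C1qb stood at 0.41 (0.16).

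**Figure D2:**
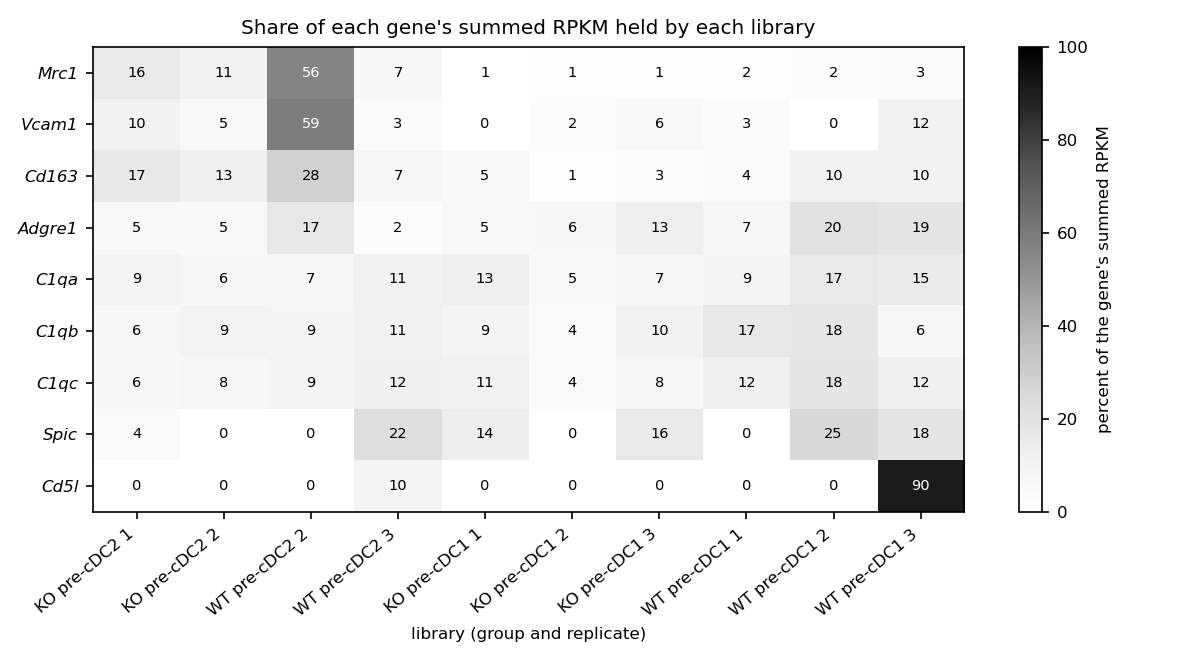
Percent of each gene's RPKM, summed over the 10 libraries, that lies in each library (columns: group and replicate). WT pre-cDC2 replicate 2 holds 56.1% of Mrc1 and 58.7% of Vcam1, and WT pre-cDC1 replicate 3 holds 90.3% of Cd5l.

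To show the DNA in front of the genes on which the comparisons turn, the stretches before the RefSeq start of C1qb, C1qc, Cd163 and Mrc1 are printed here (RefSeq, GRCm38.p6, strand of the gene, 5′ to 3′). They are chr4:136886201-136886450 (minus) for C1qb, chr4:136893066-136893164 (minus) for C1qc, chr6:124304401-124304650 (plus) for Cd163 and chr2:14229164-14229391 (plus) for Mrc1. Bases inside the annotated gene were left out, 151 of the 250 for C1qc and 22 for Mrc1. Capitals mark GAGGAA, the core of the PU box to which SPIC and its relatives PU.1 and SPI-B bind, read on either strand (TTCCTC on the other).
C1qb: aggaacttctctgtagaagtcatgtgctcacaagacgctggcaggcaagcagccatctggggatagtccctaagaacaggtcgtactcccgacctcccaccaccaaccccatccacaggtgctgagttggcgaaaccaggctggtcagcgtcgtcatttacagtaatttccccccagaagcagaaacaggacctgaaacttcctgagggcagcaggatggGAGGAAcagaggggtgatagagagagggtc
C1qc: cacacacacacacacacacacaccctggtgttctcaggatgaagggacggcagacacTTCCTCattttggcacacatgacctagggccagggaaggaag
Cd163: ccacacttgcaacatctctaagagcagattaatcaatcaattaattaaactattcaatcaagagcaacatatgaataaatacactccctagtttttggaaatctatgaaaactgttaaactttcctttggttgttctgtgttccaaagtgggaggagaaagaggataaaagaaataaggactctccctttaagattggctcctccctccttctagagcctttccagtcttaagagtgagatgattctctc
Mrc1: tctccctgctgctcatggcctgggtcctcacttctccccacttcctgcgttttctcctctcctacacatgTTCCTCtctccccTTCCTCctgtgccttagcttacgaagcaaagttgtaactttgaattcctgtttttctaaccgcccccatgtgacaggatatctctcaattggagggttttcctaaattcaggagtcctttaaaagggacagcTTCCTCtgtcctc
The letters occurred once before C1qb, starting 30 bases before the start, once before C1qc, starting 193 bases before it on the opposite strand, 3 times before Mrc1, all on the opposite strand, and in no place before Cd163. Of the 32851 promoter windows of 250 bases in the table, 23.25% held the letters at least once. Windows were found for 6 of the 9 genes, the others being Spic (no match) and Cd5l (1 match). A match describes the letters and is no measurement of binding.

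KO pre-cDC1 were set against WT pre-cDC1 to see which transcripts changed with the Adam10 deletion. Each of the 6 macrophage genes that were tested had a lower mean in KO pre-cDC1, and none passed the test. The call took a limma adjusted p below 0.05 (Benjamini-Hochberg over 14787 genes), and 0 of the 6 were called, where 0.0271% of all tested genes were. At an unadjusted p below 0.05 there was 1, Cd163, against 1335 of all 14787 tested genes, and voom on recovered reads called 0. Cd163 averaged -0.24 ± 1.08 log2 RPKM in KO and 1.31 ± 0.78 in WT pre-cDC1 (SD, n = 3 each), a difference of -1.55 ± 0.68 (SE; limma adjusted p = 0.548). KO replicate 1 overlapped WT.

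C1qc lay between -0.41 and 0.91 log2 RPKM in the 3 KO pre-cDC1 libraries and between 0.98 and 1.59 in the 3 WT pre-cDC1 libraries. The difference was -0.90 ± 0.46 log2 (SE; limma adjusted p = 0.616). C1qa differed by -0.74 ± 0.44 and C1qb by -0.78 ± 0.51 (limma adjusted p = 0.683 and 0.731), and Adgre1 by -0.90 ± 0.77 (0.817). Mrc1 differed by -0.96 ± 0.96 (0.857). C1qc and Mrc1 had KO pre-cDC1 libraries that were all below WT, as 9.27% of tested genes did. The median of the 6 differences was -0.90 log2, against -0.0038 over all tested genes, and no sign turned in any of the alternatives run.

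Summed markers of other cells also differed between the pre-cDC1 groups, although limma and voom called no gene of these lists there. Over all genes, 1335 of the 14787 tested had an unadjusted p below 0.05 in this comparison. The cDC2 lineage list had 31.3 to 53.9 RPKM in KO and 181 to 204 in WT pre-cDC1, with 8 of 9 tested differences negative, a median of -2.00 log2 and 6 of 9 at an unadjusted p below 0.05. Monocyte markers summed to 1135 to 1486 RPKM in KO and 1893 to 2080 in WT pre-cDC1 (10 to 13 and 12 of 13 genes with a read; 5 of 12 tested at an unadjusted p below 0.05). Neutrophil markers summed to 64.1 to 134 RPKM in KO and 150 to 177 in WT (3 of 7), and B cell markers to 355 to 404 and 597 to 702 (4 of 6). T cell markers summed to 47.3 to 53.1 RPKM in KO and 65.0 to 70.4 in WT (4 of 16), NK cell markers to 40.7 to 44.6 and 59.1 to 65.6 (4 of 12), and stromal and endothelial markers to 3.67 to 4.97 and 5.73 to 12 (1 of 5). Erythroid markers were at 50.1 to 90.0 RPKM in KO and 24.4 to 42.2 in WT (4 of 12). In each pre-cDC1 library 1 gene held the largest part of 4 of these sums. These were Cd8a for T cells (1341 to 1868 reads), Klrk1 for NK cells (1862 to 2757), Lyz2 for monocytes and Ighm for B cells. Cd8a and Klrk1 overlapped between the genotypes, while Lyz2 and Ighm were lower in every KO library, as in 9.27% of tested genes. Cd3e had 4, 0 and 8 reads in KO and 16, 19 and 23 in WT. Of the defining markers, Pdgfra and Ccl19 had no read in any library, and Siglec1, of marginal zone macrophages, had none in the 3 KO libraries and 0, 33 and 0 in the WT ones. The part of these cells in the values of the macrophage genes was not tested.

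**Figure D3:**
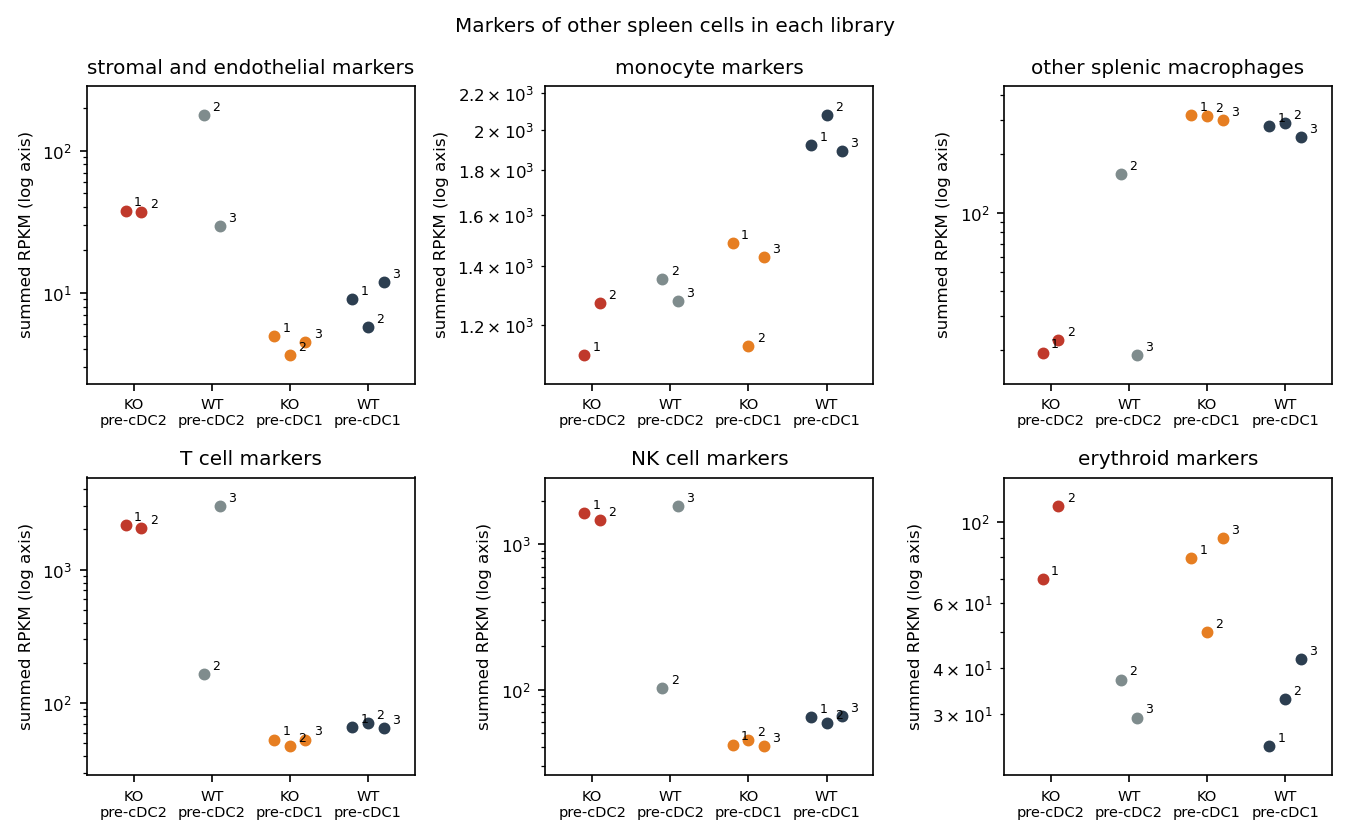
Summed RPKM (log axes) of markers of other spleen cells in each library, by group, with replicate numbers. Stromal and endothelial markers are highest in WT pre-cDC2 replicate 2 (179 RPKM), T cell and NK cell markers are lower there than in the other 3 pre-cDC2 libraries, and monocyte markers are lower in KO than in WT pre-cDC1.

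KO and WT pre-cDC2 did not differ by the test in any of the 6 genes, and the widths of the intervals leave several-fold differences possible. None of the 6 was called by limma (none at an unadjusted p below 0.05 and none by voom), where 0.0676% of tested genes were (0.0541% higher and 0.0135% lower). Over all genes, 987 of the 14787 tested had an unadjusted p below 0.05. C1qc averaged 0.18 ± 0.22 log2 RPKM in KO and 0.77 ± 0.29 in WT pre-cDC2 (SD, n = 2 each). It differed by -0.60 ± 0.56 (SE; limma adjusted p = 0.860), with both KO libraries below both WT libraries, as in 14.6% of tested genes. Cd163 differed by 0.05 ± 0.84, with a 95% interval of -1.84 to 1.93, and the sign turned under 7 of the alternatives. C1qa stood at -0.17 ± 0.54, C1qb at -0.34 ± 0.63, Adgre1 at -0.24 ± 0.94 and Mrc1 at -0.56 ± 1.18, with limma adjusted p-values of 0.945 to 0.986. The median of the 6 was -0.29 log2, against 0.0048 over all tested genes.

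These values depended on WT pre-cDC2 replicate 2. It was above WT pre-cDC2 replicate 3 by 4.29 log2 for Vcam1, 3.07 for Mrc1, 2.97 for Adgre1 and 1.92 for Cd163. It was below replicate 3 for C1qa (-0.74), C1qb (-0.36) and C1qc (-0.41), and for Spic and Cd5l, of which it had no read. Without replicate 2 the KO difference was 0.98 log2 for Mrc1 and 1.25 for Adgre1, the median of the 6 was 0.23, and none was called. Without replicate 3 Cd163 was at -0.91.

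WT pre-cDC2 replicate 2 was the highest of the 10 libraries for 3 of the 9 macrophage genes (Vcam1, Cd163 and Mrc1), for 13 of the 13 stromal and endothelial markers with a read, for 8 of 13 monocyte markers and for 8 of 10 cDC2 genes, against 14.57% of all tested genes. Stromal and endothelial markers summed to 37.1 and 37.9 RPKM in the KO pre-cDC2 libraries and to 179 and 29.5 in WT replicates 2 and 3. Stab2, a scavenger receptor of sinusoidal endothelium, had 242 and 333 reads in KO pre-cDC2 and 4500 and 305 in WT replicates 2 and 3. Kdr, a VEGF receptor of endothelium, had 970 and 777 reads in KO and 4703 and 762 in WT. T cell markers summed to 165 RPKM and NK cell markers to 103 in WT replicate 2, against 2985 and 1829 in WT replicate 3. The part of other cells in the high Vcam1, Mrc1, Adgre1 and Cd163 of this library was not tested.

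Between the cell types, Cd163 was the gene that passed. In KO mice it averaged 2.3 ± 0.30 log2 RPKM in pre-cDC2 and -0.24 ± 1.08 in pre-cDC1 (SD, n = 2 and 3), so that pre-cDC2 was 5.81-fold higher (2.54 ± 0.76 log2, SE; 95% interval 0.82 to 4.26; limma adjusted p = 0.0436). It was the 1 gene of 6 called, where 20.8% of all tested genes were (1575 or 10.7% higher and 1499 or 10.1% lower, against 1327 higher and 1943 lower with libraries centred on their medians). The call was narrow. The adjusted p was 0.0559 without the filter, 0.0548 with voom, 0.0606 with quantile normalization and 0.0568 with centring, 0.0683 without a trend and 0.068 in a fit to the KO groups alone. Leaving out KO pre-cDC2 replicate 1 gave 0.224, KO pre-cDC2 replicate 2 gave 0.138, KO pre-cDC1 replicate 2 gave 0.110 and KO pre-cDC1 replicate 3 gave 0.0872, and leaving out WT pre-cDC1 replicate 2 or 3, which enter only through the shared spread, gave 0.061 and 0.0623. With 1 RPKM added before the log2 the difference was 1.62 (adjusted p = 0.0442).

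Markers of other cells differed between the same KO groups as Cd163 did. Stromal and endothelial markers summed to 37.1 to 37.9 RPKM in KO pre-cDC2 and 3.67 to 4.97 in KO pre-cDC1 (4 of 5 tested called higher), and B cell markers to 1415 to 1526 and 355 to 404 (3 of 6 called higher). T cell markers summed to 2035 to 2160 RPKM in KO pre-cDC2 and 47.3 to 53.1 in KO pre-cDC1 (15 of 16 called higher), and NK cell markers to 1474 to 1639 and 40.7 to 44.6 (11 of 12). Of 12 monocyte markers tested, 4 were called higher and 1 lower, with sums of 1110 to 1271 RPKM in KO pre-cDC2 and 1135 to 1486 in KO pre-cDC1. Kdr, Stab2 and the T cell marker Cd3e, among others, passed the filter through pre-cDC2 libraries alone, so a gap was built into their selection. The part of other cells in the level of Cd163 was not tested.

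Mrc1 averaged -0.25 ± 0.41 log2 RPKM in KO pre-cDC2 and -3.68 ± 0.23 in KO pre-cDC1 (SD, n = 2 and 3), a difference of 3.43 ± 1.07 (SE; limma adjusted p = 0.0501), just outside the threshold. It passed the filter through 2 pre-cDC2 libraries alone, so a gap to pre-cDC1 was built into its selection. Its p-values from fits with this filter therefore support no difference. The fit without the filter, where this does not apply, called Mrc1, on 4 to 5 reads in KO pre-cDC1 libraries. With 1 RPKM added before the log2 the difference shrank to 0.78. Cd163 and Mrc1 had KO pre-cDC2 libraries that were all above KO pre-cDC1, as 28.6% of tested genes did.

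The other 4 genes did not pass between KO pre-cDC2 and KO pre-cDC1. Adgre1 differed by -0.54 ± 0.86 log2 (SE; limma adjusted p = 0.709), with both KO pre-cDC2 libraries below the 3 KO pre-cDC1 libraries, as in 23.1% of tested genes. C1qa was at -0.02 ± 0.49, with a 95% interval of -1.12 to 1.08, and C1qc at -0.12 ± 0.51. C1qb was at 0.11 ± 0.57, and at -0.15 and -0.09 with quantile normalization and with centring, which moved the median of all tested genes to -0.08 and -0.10 log2 from 0.09. The median of the 6 was 0.04 log2.

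In WT mice none of the 6 genes was called by limma between pre-cDC2 and pre-cDC1 (1 at an unadjusted p below 0.05, none by voom), where 11.5% of tested genes were (4.88% higher and 6.59% lower). Over all genes, 3728 of the 14787 tested had an unadjusted p below 0.05. Mrc1 averaged 0.31 ± 2.17 log2 RPKM in WT pre-cDC2 and -2.73 ± 0.30 in WT pre-cDC1 (SD, n = 2 and 3), a difference of 3.03 ± 1.07 (SE; limma adjusted p = 0.108). Its 2 WT pre-cDC2 libraries were above the 3 WT pre-cDC1 libraries, as in 20.2% of tested genes, and C1qc lay the other way, as in 18.5%. Cd163 differed by 0.94 ± 0.76 and by -0.02 without WT pre-cDC2 replicate 2. Adgre1 differed by -1.20 ± 0.86, and C1qa, C1qb and C1qc by -0.59 ± 0.49, -0.33 ± 0.57 and -0.42 ± 0.51 (limma adjusted p = 0.432 to 0.772 for these 4). Without WT pre-cDC2 replicate 2 Adgre1 was at -2.69 (adjusted p = 0.0464). Without replicate 3 Mrc1 was at 4.57, where the gap built in by its selection applies. Without replicate 2, WT pre-cDC2 is replicate 3 alone, at -1.23 log2 RPKM for Mrc1, against the WT pre-cDC1 mean of -2.73. The median of the 6 was -0.38 log2, against 0.06 over all tested genes.

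**Figure D4:**
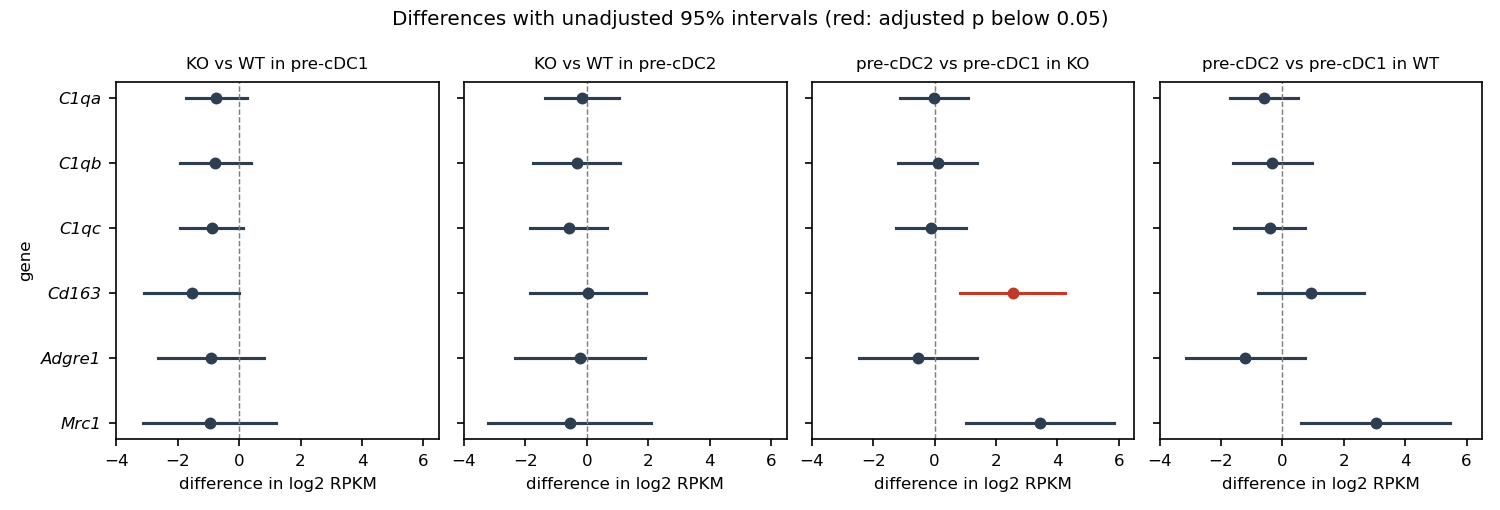
Differences in log2 RPKM (points) with unadjusted 95% intervals (lines) for the 6 tested genes in 4 comparisons, red where the limma adjusted p is below 0.05. Cd163 is the one red point, at 2.54 between KO pre-cDC2 and KO pre-cDC1, and all 6 points lie below 0 for KO against WT pre-cDC1.

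The change of KO against WT was not shown to differ between the cell types. The difference of the 2 changes, pre-cDC2 minus pre-cDC1, was 1.60 ± 1.08 log2 for Cd163 (SE; limma adjusted p = 0.987) and 0.30 to 0.67 for the other 5 genes. None was called (none at an unadjusted p below 0.05, none by voom), where 0.0203% of tested genes were. Over all genes, 713 of the 14787 tested had an unadjusted p below 0.05. All 6 values were positive, with a median of 0.50 log2 against 0.03 over all tested genes, but C1qc and Mrc1 turned negative with quantile normalization (-0.01 and -0.48), and Mrc1 also with 1 RPKM added (-0.37).

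Other genes of red pulp macrophages differed among themselves. Of 22 further genes of the cell type, 18 were tested. For this list and those below, the unadjusted counts stand against all 14787 tested genes. Of these, 1335 had an unadjusted p below 0.05 between genotypes in pre-cDC1 and 987 in pre-cDC2. Against WT, limma called none in KO pre-cDC1 (6 at an unadjusted p below 0.05, none by voom), where 15 of 18 differences were negative with a median of -0.80 log2. In KO pre-cDC2, 2 were called higher and none lower (none by voom), with a median of -0.50 log2. Those 2 were Treml4, an immunoglobulin-like receptor of splenic macrophages and of CD8+ DCs, and Slc11a1 (NRAMP1), a metal transporter of phagosomes. Treml4 had 14 and 8 reads in KO and 3 and 3 in WT pre-cDC2, a ratio of 4.92 (exact 95% interval 1.93 to 14.8, counting error only), and a limma adjusted p of 0.0162. Slc11a1 had 18 and 10 reads in KO and 2 and 2 in WT pre-cDC2, a ratio of 9.38 (3.28 to 36.8), and an adjusted p of 0.0283. Both calls were lost in the fit to the pre-cDC2 libraries alone (0.919 and 0.838), with voom (0.659 for each) and without KO pre-cDC2 replicate 1 or any 1 of the pre-cDC1 libraries (0.0553 to 0.0894 for Treml4 and 0.089 to 0.136 for Slc11a1). With 1 RPKM added before the log2, the differences of 2.13 and 2.98 log2 shrank to 0.49 for Treml4 and 0.42 for Slc11a1 (adjusted p = 0.61 and 0.757).

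The same list split between the cell types. In KO, 5 of its 18 tested genes were higher in pre-cDC2 and 7 lower, and in WT 3 were higher and 5 lower. Treml4 had 14 and 8 reads in KO pre-cDC2, 3 and 3 in WT pre-cDC2, 3616, 2972 and 2158 in KO pre-cDC1, and 2945, 2646 and 3011 in WT pre-cDC1. It was lower in pre-cDC2 in KO by -8.06 ± 0.22 log2 (SE; limma adjusted p = 7.86e-08) and in WT at a ratio of reads of 0.000788 (0.000289 to 0.00172; adjusted p = 3.09e-08). Slc11a1 was lower too, by -6.01 ± 0.33 in KO (limma adjusted p = 6.36e-06). Both genes passed the filter through pre-cDC1 libraries alone, so a gap to pre-cDC2 was built into their selection. Their p-values from fits with this filter therefore add no support to the difference in reads. Both were called in the fit without the filter as well. Timd4, a receptor for dying cells, had 0 and 0 reads in KO and 0 and 1 in WT pre-cDC2, against 148, 130 and 129 in KO and 116, 126 and 45 in WT pre-cDC1. Treml4, Slc11a1 and Timd4 thus had 45 reads or more in each pre-cDC1 library. In the same pre-cDC1 libraries Spic, Cd5l and Mrc1 had at most 17 reads each, and the rest of the red pulp macrophage genes followed reached more. Cd163 had 21 to 189 reads there, Adgre1 35 to 122, Vcam1 0 to 89 and C1qb 16 to 67. C1qc had 14 to 52 reads and C1qa 14 to 42. The ranges of Cd163, Adgre1, Vcam1, C1qb and C1qc thus overlapped the 45 to 148 reads of Timd4.

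Genes of haem and iron handling, the task of the red pulp macrophage, showed few calls in the genotype comparisons. Of 15 tested, limma called none in KO pre-cDC1 against WT (1 at an unadjusted p below 0.05, none by voom), and 1 (Slc11a1, as above) was higher in KO pre-cDC2. Between cell types 4 were higher and 3 lower in KO pre-cDC2, and 2 higher and 1 lower in WT pre-cDC2. Slc11a1, with the gap built into its selection, was among the lower genes in both. Lrp1, which encodes the receptor CD91 for haem bound to haemopexin, was higher in KO pre-cDC2 than in KO pre-cDC1 by 3.51 ± 0.60 log2 (SE; limma adjusted p = 0.00336). Hmox1, the haem oxygenase, had 26 and 34 reads in KO pre-cDC2, 126 and 64 in WT pre-cDC2, 293, 84 and 73 in KO pre-cDC1, and 104, 206 and 185 in WT pre-cDC1.

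Of the classical complement genes around C1q, 9 of 23 could be tested. None was called by limma between genotypes in either cell type (1 at an unadjusted p below 0.05 in pre-cDC1 and 0 in pre-cDC2, none by voom). The proteases that join C1q in the C1 complex had few reads. C1ra had 2 and 7 reads in KO pre-cDC2, 109 and 10 in WT pre-cDC2, none in any KO pre-cDC1 library and 1 in WT pre-cDC1 replicate 2. C1s1 had 0 and 5 reads in KO pre-cDC2 and 37 and 0 in WT pre-cDC2, so both peaked in WT pre-cDC2 replicate 2. C1rb had no read in any library. Between the cell types 2 genes were higher and 2 lower in KO pre-cDC2, and 1 each in WT. Calr, which encodes calreticulin, a chaperone that C1q binds on cell surfaces, was lower in KO pre-cDC2 by -1.51 ± 0.19 log2 (SE; limma adjusted p = 0.000708). Itgam, the integrin chain CD11b of complement receptor 3, was higher by 2.46 ± 0.38 (adjusted p = 0.0019).

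Of the relatives and regulators of SPIC, Spi1 had reads in plenty in each library while Ets1 had few in pre-cDC1. Spi1, which encodes PU.1, had 1822 to 7579 reads in pre-cDC2 and 2731 to 4913 in pre-cDC1. Ets1, an ETS factor of lymphocytes, had 8343 and 5771 reads in KO pre-cDC2, 1402 and 9672 in WT pre-cDC2, 32, 4 and 55 in KO pre-cDC1, and 43, 165 and 160 in WT pre-cDC1. Spib, which encodes SPI-B, a relative of SPIC in lymphoid cells and plasmacytoid DCs, had 1905 and 2035 reads in KO pre-cDC2, 6340 and 2080 in WT pre-cDC2, 151, 121 and 81 in KO pre-cDC1, and 406, 590 and 636 in WT pre-cDC1. Its KO pre-cDC2 level was above KO pre-cDC1 by 4.09 ± 0.34 log2 (SE; limma adjusted p = 7.88e-05), 1 of 7 genes of 9 called higher, while Irf8, a factor of cDC1 cells, was lower by -2.27 ± 0.31 (adjusted p = 0.00113). None of the 9 was called by limma between genotypes (3 at an unadjusted p below 0.05 in pre-cDC1 and 0 in pre-cDC2, none by voom), the nearest being Spib at -2.19 ± 0.31 in KO against WT pre-cDC1 (adjusted p = 0.0526). Of 7 tested partners and relatives of VCAM1 and F4/80, none was called between genotypes (1 at an unadjusted p below 0.05 in each cell type, none by voom), and 3 were higher and 3 lower in KO pre-cDC2 than in KO pre-cDC1 (1 and 2 in WT). Cd209a, a lectin receptor, was higher there by 3.37 ± 0.44 (adjusted p = 0.000871).

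Of 12 genes of macrophages in other splenic zones, 5 were tested. None was called by limma between genotypes (1 at an unadjusted p below 0.05 in pre-cDC1 and 0 in pre-cDC2, none by voom), while 1 was higher and 3 lower in KO pre-cDC2 than in KO pre-cDC1, and 1 and 2 in WT. Timd4 and Folr2, among those called in WT, each passed the filter through the libraries of a single cell type. Cd9, a tetraspanin, was lower in pre-cDC2 by -3.11 ± 0.20 log2 in KO and -3.59 ± 0.20 in WT (SE; limma adjusted p = 1.61e-05 and 8.59e-06). Cd36, a lipid scavenger receptor, had 241 and 358 reads in KO pre-cDC2, 7086 and 379 in WT pre-cDC2, 7997, 8536 and 5689 in KO pre-cDC1, and 5956, 5729 and 6110 in WT pre-cDC1. WT pre-cDC2 replicate 2 had the most reads of the libraries. Scaled for depth, its Cd36 was at 7.17 log2 RPKM, below the 7.39 to 7.92 of the pre-cDC1 libraries.

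The genes whose log2 RPKM followed each macrophage gene most closely over the 10 libraries differed from gene to gene. They are named by Pearson r, with predicted genes left out, and all share the same libraries and their separation by cell type. For Cd163 they were Daam1 (0.977), Cyp4f18 (0.957) and Tgfbr3 (0.95), and for Mrc1 BC005537 (0.996) and Tbc1d17 (0.986). Adgre1 was followed by Sort1 (0.935), Vps26a (0.905) and Lat2 (0.902). For the complement genes they were Tsta3 (0.924), Trnau1ap (0.905) and Sik2 (0.891) for C1qa, Ebna1bp2 (0.925), Gtf2h5 (0.9) and Rnls (0.876) for C1qb, and Dtd2 (0.949), Aimp1 (0.939) and Ostf1 (0.936) for C1qc. No gene was named under more than 1 of the 6.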

How the data were processed

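RNA of sorted splenic precursors was isolated with PicoPure, and 2 ng plus ERCC spike-ins went into SMARTSeq v2 libraries sequenced from both ends, per the labels' protocols. The tools in the submitters' processing notes are STAR 2.3, featureCounts 1.5.0, edgeR and R 3.3.3, and the build is GRCm38 (mm10). Annotation release and strand setting: not given in the sources used here. The values the authors deposited are log2 RPKM for 52550 genes in 10 libraries. They solved to whole reads for 100% of genes within 0.001 reads (in proportion for high counts), with exon lengths of GENCODE M21 for 49035 genes, and implied a mean prior of 0.245 reads. Coordinates of Adgre1 are those of the next version of its identifier.

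The test was limma 3.58.1 (R 4.3.3), with 1 mean per group, on the deposited log2 values of 14787 genes (log2 RPKM above 0 in at least 2 libraries), with no further pseudocount, eBayes with trend, two-sided tests and Benjamini-Hochberg adjustment over genes within each comparison. Groups shared 1 spread, with 6 residual and 3.31 prior degrees of freedom. The procedure was run on simulated counts for genes averaging above 1 RPKM, with known differences planted in KO pre-cDC1. The check required only that the median differences were recovered, and it set no limit on false calls. Recovered reads gave totals, ratios, floors and the voom alternative. Alternatives were other filters, 1 RPKM added, quantile normalization, median centring, other fits, replicate blocks and leaving out each library.

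The 9 genes and the further lists were chosen with earlier results of these data known. Named are all 9, from each further list described up to 3 genes with the smallest p per comparison (genes given with reads alone were chosen after their values were seen), and the 3 genes nearest in pattern to each tested one, of which 1 is not reported here.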

Additional observations from a re-analysis of the deposited data

How the results depend on the processing

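Of the macrophage genes, 1 (Cd163) was called between KO pre-cDC2 and KO pre-cDC1, and the count was 0 with quantile normalization, with median centring, with voom, with replicate numbers as a block and with a block by mouse number. It was 0 to 2 when 1 library was left out (2 being Cd163 and Mrc1, without either WT pre-cDC2 library). Without the filter, without a trend and in a fit to the groups compared the 1 gene called was Mrc1 and not Cd163. The gap built into the selection of Mrc1 applies to these fits except the fit without the filter. In WT the count of 0 became 0 to 1 when 1 library was left out, and it was 0 in all other alternatives run for the other comparisons. The cause was not tested. With 2 libraries in each pre-cDC2 group, a left-out library leaves 1, assumed to vary like the other groups, and few reads per library limit the precision of each gene.

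Signs turned in 29 values, none past the threshold. Ranges here are over fits with 1 library left out. For KO against WT pre-cDC2, Cd163 (0.05) was at -0.0045 with 1 RPKM added, -0.0003 (quantile), -0.0292 (centring), -0.0127 (voom), -0.119 (replicate block) and -0.912 to 1.01 by library, Adgre1 at -1.72 to 1.25, C1qa at -0.541 to 0.199 and Mrc1 at -2.09 to 0.976. For WT pre-cDC2 against WT pre-cDC1, Adgre1 ranged over -2.69 to 0.278 and Cd163 over -0.0159 to 1.90. For KO pre-cDC2 against KO pre-cDC1, C1qa was at 0.0461 (replicate block) and -0.309 to 0.312, C1qb at -0.15 (quantile), -0.0876 (centring) and -0.335 to 0.404, and C1qc at -0.474 to 0.188. For the difference of the KO changes, C1qc was at -0.0091 (quantile) and -0.0542 to 0.607, C1qb at -0.0016 to 0.95, Adgre1 at -0.817 to 2.15, and Mrc1 at -0.371 (1 RPKM added), -0.476 (quantile) and -1.14 to 1.93.

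Counts over all genes ranged from 0 to 114 (main 4) for KO against WT pre-cDC1, 0 to 1048 (10) for pre-cDC2, 217 to 2722 (1697) between cell types in WT, 1094 to 3887 (3074) in KO and 0 to 495 (3) for the difference of changes. Libraries with the same replicate number had deviations from their group means correlated at -0.03 to 0.032. With so few libraries per group this does not settle whether the numbers pair them, and the labels do not say. With the replicate block Cd163 in KO was at 2.45 (limma adjusted p = 0.1), and with the block by mouse number at 2.56 (adjusted p = 0.107).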
